A study of Mus musculus with 4 samples.

Results

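S-phase microglia without mitotic transcripts are cells named here for their transcripts, those of DNA replication with few of those of cell division. They were selected on measured values, and DNA content was not measured. A cell was a member when at least 4 of 8 replication genes (Mcm3, Mcm5, Mcm6, Pcna, Tyms, Rrm2, Gins2 and Uhrf1) had 1 or more unique molecular identifiers (UMIs, each standing for 1 captured RNA molecule) and fewer than 3 of 6 mitotic genes (Mki67, Top2a, Birc5, Ccnb2, Cenpf and Ube2c) had any. The rule found 1759 members among 40869 cells that had 200 to 6000 genes and at most 10% mitochondrial UMIs (passing cells). Below, "mitotic cells" are the 3397 passing cells with at least 3 of the 6 mitotic genes, and "other cells" are the 39110 passing cells that were not members, the mitotic cells included.

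Single-cell RNA sequencing was carried out on CD45+ CD11b+ cells sorted from the brains of mice fed 0.2% cuprizone (CPZ) for 5 weeks, a copper chelator that kills oligodendrocytes and strips myelin. By the methods of the study, each of the 4 libraries came from a separate mouse. PRMT1FL mice (n = 2; labelled wild type) carried floxed Prmt1 alleles without Cre, and PRMT1Cx3cr1-KO mice (n = 2; labelled PRMT1-KO) carried floxed Prmt1 with Cx3cr1-CreERT. Both were C57BL/6 and received tamoxifen, which activates CreERT, and CPZ. The labels place the start of the diet at 5 to 6 weeks of age, whereas the methods of the study place tamoxifen at that age and the diet later. CreERT is expressed from Cx3cr1, so it acts in microglia and in other cells that use this gene, and the Cre allele, Cre activity and loss of Prmt1 cannot be told apart in these groups. The sorted cells are labelled quiescent microglia. The members were chosen from among them for replication transcripts.

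A dividing cell copies its genome in S phase. Before that, the origin recognition complex with Cdc6 and Cdt1 loads the MCM helicase on DNA, and during S phase polymerases and the sliding clamp PCNA follow the opened fork while enzymes supply nucleotides and chaperones place new histones. E2F transcription factors switch on most of these genes at the G1/S boundary, and a different programme, built around Cdk1, cyclin B and kinesins, takes over in G2 and mitosis. Microglia renew themselves by local division, and demyelination raises that division.

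E2F proteins bind short GC-rich sites in front of replication genes. The octamers TTTCCCGC, TTTGGCGC, TTTCGCGC and TTTGCCGC were searched on both strands in the 250 bases before each gene start in RefSeq (GRCm38.p6), and matches may overlap. Of 27025 genes with a promoter entry, 2.16% held a match, and so did 4.39% of the 4350 matched genes that were expressed enough to be assessed here. The share was 3 of 7 matched genes of the 8 S-phase genes in the rule. Among the 45 genes found at least 2-fold higher in members than in other cells in all 4 libraries, which are described below, 37 had an entry and 9 of them (24.3%) held a match. These are descriptions of sequence and not of binding. Stretches of 90 bases are shown for 2 genes of the rule and for 2 genes outside it that stood highest in members, 5′ to 3′ on the gene's strand, with matches in capitals.
Mcm5: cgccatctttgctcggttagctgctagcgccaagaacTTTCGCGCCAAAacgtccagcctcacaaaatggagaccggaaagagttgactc
Mcm6: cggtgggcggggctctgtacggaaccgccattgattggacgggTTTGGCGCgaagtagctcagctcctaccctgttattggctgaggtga
Hells: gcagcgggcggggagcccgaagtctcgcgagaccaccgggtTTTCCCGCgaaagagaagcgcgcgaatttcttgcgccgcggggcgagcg
Dtl: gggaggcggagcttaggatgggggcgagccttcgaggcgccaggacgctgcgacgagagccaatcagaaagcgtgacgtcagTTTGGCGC
The stretches lie at chr8:75109319-75109408 (plus strand), chr1:128359706-128359795 (minus strand), chr19:38930887-38930976 (plus strand) and chr1:191575545-191575634 (minus strand). The 12 capitals of Mcm5 are a pair of overlapping matches on opposite strands.

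Members came from every library. PRMT1FL mouse 1 gave 372 members of 11427 passing cells, PRMT1FL mouse 2 gave 283 of 8170, PRMT1Cx3cr1-KO mouse 1 gave 439 of 10370 and PRMT1Cx3cr1-KO mouse 2 gave 665 of 10902. No barcode was shared between members of different libraries. Between whole libraries, 31 to 46 barcodes were shared per pair. The libraries held 91306165, 76943248, 85874289 and 99559644 UMIs in the same order, of which 5868177, 5169124, 6155170 and 9683692 came from members.

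The members were deep libraries of RNA. Their median was 16122.5 UMIs in PRMT1FL mouse 1, 17669 in PRMT1FL mouse 2, 12336 in PRMT1Cx3cr1-KO mouse 1 and 13074 in PRMT1Cx3cr1-KO mouse 2. Other cells had medians of 5918, 6693, 6051 and 6717, and mitotic cells of 11236, 12900, 11284 and 11629. A rule that counts detected genes passes deep cells more easily, and members of the PRMT1FL mice were deeper than those of the PRMT1Cx3cr1-KO mice. The doublet score ranked 16.4% to 19.4% of members among the highest of their library, against 6.14% to 8.85% of other cells. These cells were kept. Without them the tests between genotypes and the ratios to all other cells and to mitotic cells were run again, but the comparison with other cells without mitotic ones, the shares by number of genes detected, the MHC class II shares and the neutrophil-marker cells were not.

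Nearly all members carried microglial markers. At least 3 of 8 microglial markers were detected in 99.5% to 100% of them, and the markers summed to 9156 to 10218 CPM (UMIs of a gene scaled to a total of 1000000) in members against 9640 to 10890.5 CPM in other cells. Among markers of other cell types, neutrophil genes summed to 1.14 to 1.96 CPM in members and to as much as 1355 CPM in other cells. Haemoglobin genes reached 1320 CPM in members of PRMT1FL mouse 2, where 1 cell carried at least 3 of 4 erythroid genes. Border-associated macrophage markers, led by Pf4, summed to 39.5, 46.2, 61.7 and 123 CPM in members of the 4 libraries and moved with genotype in them.

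Free RNA in droplets can place UMIs in cells that do not express a gene. Cells with neutrophil markers were used for comparison, since mature neutrophils do not divide. Of 54 passing cells with at least 3 of 5 neutrophil markers and fewer than 3 microglial ones, 0 met the rule, which allows a share of up to 5.56%. They were not free of dividing cells, as 3 of the 54 were mitotic cells, and neutrophil markers summed to 551, 2790, 0.784 and 358 CPM in the mitotic cells of the 4 libraries. Cells with at least 3 neutrophil markers numbered 25, 46, 0 and 1 in the 4 libraries, so they come almost only from the PRMT1FL mice. The 54 cells had a median of 3051.5 UMIs, far below the members, and the 8 S-phase genes had a UMI in 1.85% to 9.26% of them. At that depth and with dividing cells among them, they are a weak measure of free RNA. Among members, which had to show at least 4 of the 8 genes, Pcna was detected in 90.8% to 92.7% of cells and Rrm2, the small subunit of ribonucleotide reductase, in the smallest share of the 8, 18.0% to 27.1%. These shares describe the selection and were not set against the neutrophil-marker cells.

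Around the threshold the transition was gradual. In the 4 libraries, 354, 336, 400 and 452 cells with under 3 mitotic genes had 3 of the 8 S-phase genes and fell just outside, and 166, 128, 186 and 293 cells had exactly 4 and fell just inside, which is 42.4% to 45.2% of the members. The summed level of 20 licensing and helicase genes outside the rule was 170, 177, 191 and 225 CPM in the cells with 3 genes and 309, 250.5, 328 and 379 CPM in those with 4. It reached 871, 854, 854 and 963 CPM in the 10 to 24 cells per library that had all 8 genes. Cells with 0 S-phase genes had 108 to 114 CPM.

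The mitotic limit divided members by how many mitotic genes they showed. No mitotic gene was detected in 58.6% and 58.3% of members of the PRMT1FL mice and in 49.7% and 50.4% of those of the PRMT1Cx3cr1-KO mice. The remaining members had 1 or 2 of these genes, so mitotic transcripts were few in the members rather than absent. With 0, then 2, then 6 mitotic genes detected among cells with at least 4 S-phase genes of PRMT1FL mouse 1, Mcm2, a subunit of the MCM helicase, stood at 45.0, 63.7 and 19.7 CPM. Over the same steps Cdk1, the kinase that drives entry into mitosis, stood at 33.8, 74.8 and 182 CPM. The cells with 2 mitotic genes, just inside the limit, had 44 G2/M genes outside the rule at 1779, 1326, 1686 and 1757 CPM summed in the 4 libraries, and the cells with 3, just outside it, at 2976, 2219, 2156 and 2350 CPM.

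**Figure D1:**
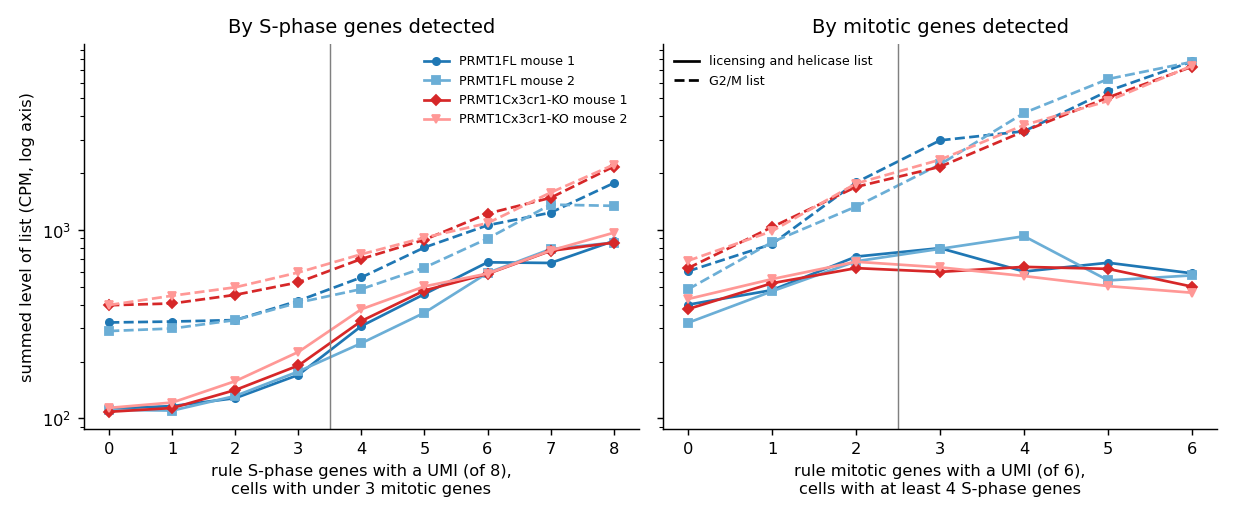
Summed CPM (log axis) of the licensing and helicase list (solid) and of the G2/M list (dashed) by the number of S-phase genes detected (left) and of mitotic genes detected (right), 1 line per library; grey lines mark the limits of the rule. The licensing list climbs from 108 to 114 CPM at 0 S-phase genes to 854 to 963 CPM at 8, and the G2/M list climbs along both axes.

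The members were set beside all other cells, without a test, because the rule chose them on this contrast. Of 5398 genes outside the rule with at least 20 CPM on average in the higher class, 45 (0.834%) were at least 2-fold higher in members in all 4 libraries and 4 (0.0741%) at least 2-fold lower. The median log2 ratio over all these genes was 0.015. Thinned to 3000 and 5000 UMIs, with the rule applied again, 228 and 164 genes were 2-fold apart, and 22 were with at least 3 S-phase genes in the rule, 74 with at least 5 and 24 with no mitotic gene allowed. Against other cells without the mitotic ones, a comparison added after seeing the data, 68 (1.26%) of 5405 genes were higher and 2 (0.037%) lower. Of the 45 higher genes, 8 belonged to the licensing list and 15 to the fork list.

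Licensing and helicase genes led, with 8 of the 20 in the list at least 2-fold higher and 11 reaching the level to be assessed. Genes that are low elsewhere reached that level through the members alone, so this count describes the members and supports nothing further. Mcm2 stood at 46.2, 42.4, 38.0 and 43.8 CPM in members of the 4 libraries and at 5.61, 6.31, 6.29 and 7.63 CPM in other cells, a log2 ratio of 2.73 ± 0.23 (SD, n = 4 libraries). Mcm4, its partner in the helicase, had a log2 ratio of 2.66 ± 0.07 (SD, n = 4). Dtl, which marks Cdt1 for destruction so that no origin fires again, stood at 24.4, 21.9, 24.7 and 24.3 CPM against 1.74, 2.67, 3.20 and 3.41 CPM. No library of other cells came near the members in any of these genes.

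Fork genes followed, with 15 of the 40 in the list at least 2-fold higher, of 24 assessed. Hells, a chromatin remodeller that helps keep DNA methylated, had the highest ratio of all 45 genes, 3.29 ± 0.32 (SD, n = 4), from 41.1, 37.5, 43.5 and 44.6 CPM in members and 3.31, 3.77, 4.34 and 6.13 CPM in other cells. Ung, which removes uracil from DNA, had a log2 ratio of 3.14 ± 0.15 (SD, n = 4). Timeless, which stabilises the fork, and Prim1, the primase subunit that starts each new strand, had 2.65 ± 0.09 and 2.36 ± 0.16.

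Nucleotide and histone genes were less uniform. Of 17 nucleotide genes, 3 passed, among them Dut, which clears dUTP, and Rrm1, the large subunit of ribonucleotide reductase, with log2 ratios of 2.15 ± 0.18 and 1.48 ± 0.26 (SD, n = 4). Of 18 histone and chromatin assembly genes, 4 passed, all of them chaperones or the enzymes that handle new histones: Chaf1b and Chaf1a of the CAF-1 complex, Nasp and Hat1. For Hist1h2ap, a replication-dependent H2A gene, the comparison turned on the mitotic cells among the other cells. It stood at 71.4, 66.7, 73.4 and 77.1 CPM in members, below the 121, 133, 158 and 180 CPM of all other cells but above the 52.0, 52.2, 31.3 and 36.8 CPM of other cells without the mitotic ones. The other assessed Hist1 genes of the list were lower in members than in other cells without the mitotic ones in every library. The log2 ratios were -0.83 for Hist1h1c, -0.67 for Hist1h2bc and -0.58 for Hist1h1e. Replication-dependent histone messages mostly lack poly(A) tails, so a poly(A)-primed library samples only part of them.

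Of 12 genes of G1/S control, only E2f1, the transcription factor named above, passed, at 50.4, 44.7, 54.3 and 50.7 CPM in members and 9.30, 11.5, 10.9 and 14.4 CPM in other cells. None of 11 assessed G2/M genes was at least 2-fold higher than in other cells, but 5 of 8 assessed were when the mitotic cells were taken out of these. Cdk1 then stood at 40.0, 38.1, 43.2 and 42.1 CPM in members against 13.6, 13.3, 14.5 and 14.7 CPM. Cenpa, the centromeric histone, and Pttg1, which encodes securin, had log2 ratios of -1.94 ± 0.15 and -1.70 ± 0.29 (SD, n = 4) to all other cells. To those without mitotic cells the ratios were -0.40 ± 0.29 and 0.080 ± 0.17. Thinned to 3000 UMIs, the ratios to all other cells were -0.12 and 0.018. The other 2 lower genes were Pla2g7, a secreted phospholipase, at 4.43, 3.87, 17.7 and 29.3 CPM against 15.2, 15.9, 38.0 and 64.0 CPM, which was lower without the mitotic cells too, and S100a8, a neutrophil gene at 0.682, 0.193, 0.162 and 1.96 CPM in members.

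None of 16 homeostatic genes, 22 disease-associated genes and 15 interferon genes was 2-fold apart, with median log2 ratios of -0.11, 0.06 and 0.03. Stress and immediate-early genes had a median of -0.23, with library medians of -0.32 to -0.14, beside 0.015 for all genes. MHC class II genes had the lowest median, -0.84 over 6 genes. Among cells with UMIs between 8629.5 and 20322.5, the quartiles of the members, the MHC class II median was -0.15, a smaller difference at matched depth. Prmt1, the gene deleted in the KO mice, was higher in members of every library, at 120, 113, 88.7 and 82.2 CPM against 88.9, 81.7, 68.8 and 69.3 CPM, a log2 ratio of 0.38 ± 0.10 (SD, n = 4).

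**Figure D2:**
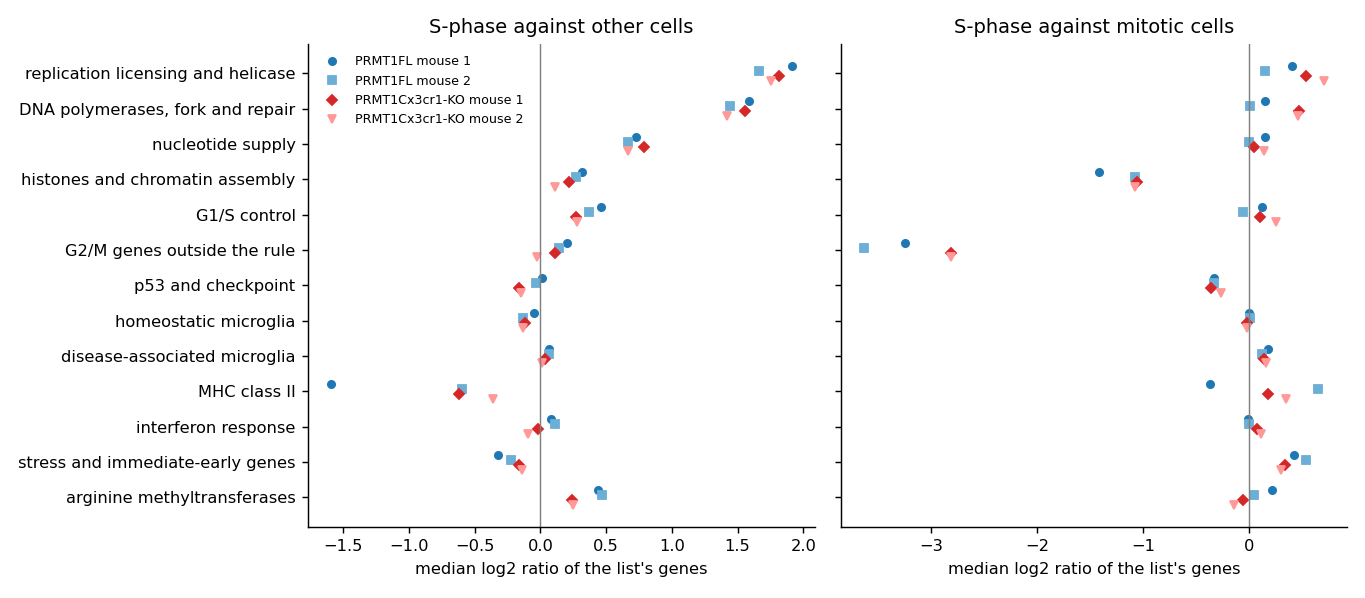
Median log2 ratio of each gene list in members over other cells (left) and over mitotic cells (right), with 1 symbol per library, rule genes left out and only genes with at least 20 CPM in the higher class counted. Replication lists lie to the right of 0 on the left panel, and the G2/M list and the histone list lie to the left on the right panel.

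MHC class II shares needed the depth beside them. Cells with at least 2 of 4 class II genes made up 32.0%, 41.3%, 22.3% and 15.6% of members in the 4 libraries and 26.3%, 31.8%, 17.7% and 10.6% of other cells. After each cell was thinned to 3000 UMIs, which left out 0 to 8 members and 1169 to 2179 other cells per library, the shares were 10.2%, 14.1%, 6.94% and 3.49% of members and 17.7%, 21.8%, 9.34% and 4.13% of other cells. The order of the classes turned in all 4 libraries. In either form the shares were higher in both PRMT1FL mice than in both PRMT1Cx3cr1-KO mice, among members and among other cells alike.

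Set beside mitotic cells, again without a test, members showed the other side of the rule. Of 5497 genes assessed, 4 (0.0728%) were at least 2-fold higher in all 4 libraries and 114 (2.07%) at least 2-fold lower. The higher genes were Ung, Hells, Mcm4 and Cdt1. Cdt1, the loading factor that is removed once replication starts, stood at 33.2, 32.7, 35.3 and 34.4 CPM in members and 13.5, 15.4, 16.9 and 10.8 CPM in mitotic cells. Mcm4 and Cdt1 belong to licensing, and Ung and Hells to the fork and repair list.

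G2/M genes were low in members beside mitotic cells, which the rule and the level filter fixed in advance: mitotic cells were chosen for transcripts of this kind, and genes such as Hmmr reached 20 CPM through them alone. Hmmr, a spindle protein, stood at 0.852, 0.774, 1.95 and 3.41 CPM in members and 84.9, 90.4, 76.2 and 84.5 CPM in mitotic cells. Plk1, a mitotic kinase, had a log2 ratio of -5.13 ± 0.80 (SD, n = 4). Of 20 histone and chromatin genes, 10 were lower, led by Hist1h2ap at 785, 907, 876 and 671 CPM in mitotic cells. Some genes usually counted with replication went the same way. Tk1, the thymidine kinase that accumulates late in S phase, stood at 18.6, 16.4, 29.9 and 30.1 CPM in members and 65.3, 78.8, 63.4 and 57.7 CPM in mitotic cells. It was under 2-fold lower in PRMT1Cx3cr1-KO mouse 2, and 0 of 16 assessed nucleotide genes were at least 2-fold lower in all 4 libraries. Pclaf, a PCNA partner, stood at 37.0, 27.3, 52.5 and 50.8 CPM against 157, 206, 153 and 151 CPM. The log2 ratio of Pclaf was 0.16 when cells were thinned to 3000 UMIs and -0.37 at 5000. Dbf4, the activator of the Cdc7 kinase, had a log2 ratio of -1.55 ± 0.21 (SD, n = 4).

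The genotypes were compared next, starting with the share of members among passing cells. It was 3.26% in PRMT1FL mouse 1 (95% exact Clopper-Pearson interval 2.94 to 3.60), 3.46% in PRMT1FL mouse 2 (3.08 to 3.88), 4.23% in PRMT1Cx3cr1-KO mouse 1 (3.85 to 4.64) and 6.10% in PRMT1Cx3cr1-KO mouse 2 (5.66 to 6.57), intervals that cover counting error only. Both KO libraries lay above both PRMT1FL libraries, and PRMT1Cx3cr1-KO mouse 2 stood apart from PRMT1Cx3cr1-KO mouse 1 by more than the PRMT1FL mice did from each other. The means were 3.36% ± 0.147 and 5.17% ± 1.32 (SD, n = 2 each), a ratio of geometric means of 1.51. The exact two-sided permutation test gave p = 0.33, the smallest that 2 against 2 allows.

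At equal depth the order held. With each cell thinned to 5000 UMIs, 1.71%, 1.73%, 2.71% and 3.63% of the cells met the rule in the 4 libraries, and with 3000 UMIs 0.887%, 0.900%, 1.23% and 1.63% did. Cells shallower than these limits were left out, 2806 to 4651 per library at 5000 UMIs and 1169 to 2187 at 3000. Mitotic cells differed more in share, at 5.59%, 5.40%, 8.40% and 13.3%.

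Of all cells that met either the S-phase or the mitotic limit, members made up 36.8% and 39.1% in the PRMT1FL mice and 33.5% and 31.5% in the PRMT1Cx3cr1-KO mice. The means were 37.9% ± 1.62 and 32.5% ± 1.42 (SD, n = 2 each; exact two-sided permutation p = 0.33, the smallest possible). Thinned to 5000 UMIs, the shares were 24.3%, 26.5%, 25.7% and 24.0%, and the genotypes overlapped. Thinned to 3000 UMIs, they were 21.2%, 22.8%, 20.7% and 18.2%, and the genotypes did not overlap.

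**Figure D3:**
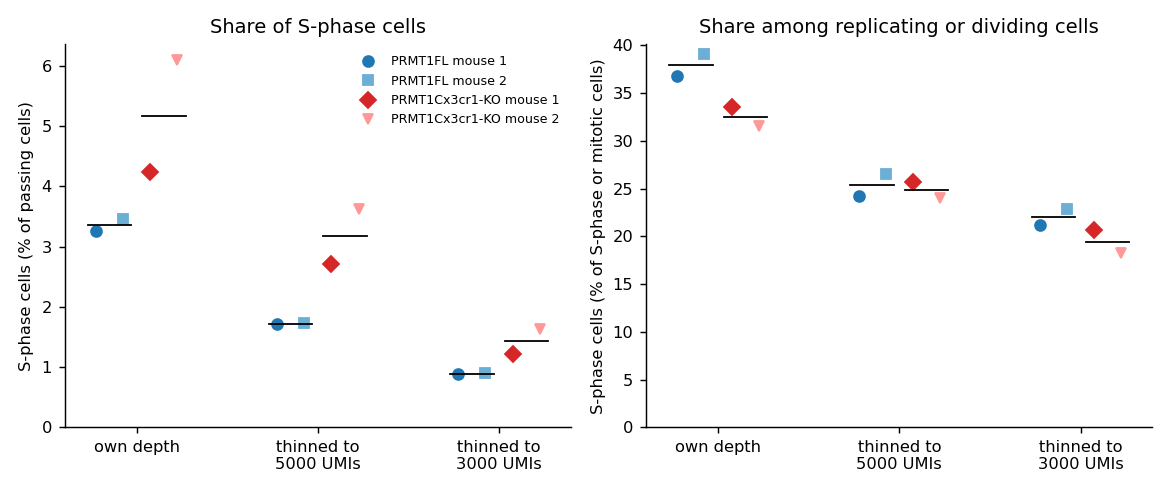
Percent of passing cells (left) and of cells in S phase or mitosis (right) that were members, per library, at own depth and thinned to 5000 or 3000 UMIs; bars are means of 2 mice. On the left the KO libraries lie above the PRMT1FL libraries at each depth, and on the right the genotypes overlap at 5000 UMIs.

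Inside members, Prmt1 was lower in the PRMT1Cx3cr1-KO mice but far from absent. Its transcript (ENSMUSG00000109324, GRCm38 chr7:44975989-44986568, minus strand) fell by 0.50 on the log2 scale (SE 0.10; edgeR's quasi-likelihood test, adjusted p = 0.0376), from the per-library values given above. The libraries of the 2 genotypes did not overlap. UMIs mark the 3′ end of a transcript, and a message that lacks deleted exons can still be counted. The call was lost when either PRMT1FL mouse 1 or PRMT1Cx3cr1-KO mouse 2 was left out. Fits with 1 library left out, here and below, hold 1 mouse of 1 genotype, so their spread comes from the other genotype alone. Without the marked doublets the call of Prmt1 was lost too, with a log2 fold change of -0.46 in place of -0.50 (edgeR adjusted p = 0.0776).

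Across 10605 genes outside the rule, 49 (0.462%) rose and 32 (0.302%) fell in members of the PRMT1Cx3cr1-KO mice by this test with Benjamini-Hochberg adjustment. The median log2 fold change over all genes was -0.00. The libraries of all 81 genes were apart, beside 26.1% of all genes that lay higher in both KO libraries and 15.9% that lay lower. In other cells of the same mice, 80 of the 81 had the same sign and 49 passed, beside 806 of 14685 genes that passed there. The difference between the effects in members and in other cells, described below, passed for 3 of the 81. Leaving out 1 library gave 142 calls without PRMT1FL mouse 1, 143 without PRMT1FL mouse 2, 496 without the first PRMT1Cx3cr1-KO mouse and 95 without the second. The count was 19 among members within the UMI quartiles, 8 after thinning to 5000 UMIs and 0 after thinning to 3000 (edgeR, with 235 genes at an unadjusted p under 0.05; DESeq2 was not run on thinned cells).

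Cx3cr1, the fractalkine receptor, stood at 1253 and 1361 CPM in members of the PRMT1FL mice and at 751 and 758 CPM in those of the PRMT1Cx3cr1-KO mice, a fall of 0.84 on the log2 scale (SE 0.09, edgeR adjusted p = 0.00182), beside a log2 fold change of -0.85 in other cells. CreERT is expressed from this gene in the KO mice alone, and an effect of that allele cannot be told apart from one of Prmt1. Siglech, a lectin of resting microglia, fell by 0.56 (SE 0.09). These were the 2 of 16 homeostatic genes that passed, both lower, and the list's median was -0.05.

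Of 22 disease-associated genes, 4 fell and 1 rose, with a median of -0.24. Cst7, a cystatin of lysosomes, stood at 1989 and 1886 CPM against 1292 and 989 CPM. Itgax, which encodes CD11c, stood at 72.9 and 87.1 CPM against 42.7 and 22.0 CPM. Cox6a2, a subunit of cytochrome oxidase, fell by 1.28 (SE 0.20) and Axl, a receptor for dying cells, by 0.64 (SE 0.12). Cspg4, the NG2 proteoglycan, rose instead, from 70.4 and 56.1 CPM to 116 and 119 CPM (log2 fold change 0.85, SE 0.11, edgeR adjusted p = 0.00473), beside 0.79 in other cells.

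Of 6 tested MHC class II genes, 2 fell, and the median was -1.10. Both KO libraries lay below both PRMT1FL libraries for all 6, beside 15.9% of all genes. Cd74, the invariant chain, stood at 247, 578, 190 and 126 CPM in the 4 libraries (edgeR adjusted p = 0.0460), and H2-Aa, an antigen-presenting chain, at 48.2, 133, 26.5 and 29.6 CPM (edgeR adjusted p = 0.0358). Cd74 had a UMI in 188, 169, 194 and 203 members of the 4 libraries, and H2-Aa in 40, 49, 34 and 19. The 685 UMIs of H2-Aa in PRMT1FL mouse 2 included 146 from 1 cell. Cd74 lost its call without PRMT1Cx3cr1-KO mouse 2. Without cells of at least 3 markers of another type it also lost its call, with a log2 fold change of -1.56 in place of -1.43 (edgeR adjusted p = 0.103). H2-Aa lost its call without the marked doublets, with a log2 fold change of -1.66 in place of -1.72 (edgeR adjusted p = 0.0865). Of 16 interferon genes none passed, while all 16 fold changes were below 0 with a median of -0.31, beside -0.0035 for all genes. Libraries did not overlap, with KO lower, for 3 of the 16, beside 15.9% of all genes. The smallest p belonged to Ifit3, an antiviral gene, at 56.1, 51.7, 46.5 and 26.5 CPM. PRMT1Cx3cr1-KO mouse 2 was the lowest library in their sum, at 1999 CPM, while PRMT1Cx3cr1-KO mouse 1 was the highest, at 3024 CPM.

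Outside the lists, Il4i1, an amino acid oxidase that restrains T cells, fell the most clearly, from 63.9 and 78.7 CPM to 30.5 and 28.3 CPM (log2 fold change -1.33, SE 0.13, edgeR adjusted p = 0.00182). Pacsin1, an adaptor of membrane traffic, fell by 1.14 (SE 0.17). Among the rises, Pla2g7 went up by 2.47 on the log2 scale (SE 0.26, edgeR adjusted p = 0.00184), and Pdlim4, a protein of the actin cytoskeleton, from 17.7 and 21.3 CPM to 47.9 and 74.6 CPM. Wfdc17, a small secreted protein of macrophages, reached 98.1 and 217 CPM from 51 and 53 CPM. Ms4a7, a membrane protein of phagocytes, and Plp2, a small membrane protein, rose by 1.46 and 1.41. The calls of Plp2 and, below, Pf4 were lost without PRMT1Cx3cr1-KO mouse 2. That of Ms4a7 was lost without the marked doublets, with a log2 fold change of 1.16 in place of 1.46 (edgeR adjusted p = 0.0833).

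Pf4, a chemokine, stood at 26.4, 33.7, 47.8 and 108 CPM and rose by 1.35 (SE 0.27, edgeR adjusted p = 0.0454), and it is also the most abundant of the border-associated macrophage markers above. At least 3 of those 6 markers were detected in 1.88%, 1.06%, 1.37% and 1.5% of members, and these shares overlapped between genotypes. After cells with at least 3 markers of another type were removed, Pf4 rose by 1.83 (edgeR adjusted p = 0.0364). Ms4a7 then rose by 1.67, in place of 1.46 (edgeR adjusted p = 0.0411). A part of cells with fewer of these markers was not tested.

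Replication and mitotic lists had medians above that of all genes in members of the KO mice. They were 0.16 for 20 licensing genes, 0.12 for 40 fork genes and 0.25 for 41 G2/M genes, beside -0.00 for all genes, and no licensing or fork gene passed. Libraries did not overlap, with KO higher, for 8 of 20, 22 of 40 and 24 of 41 of them, beside 26.1% of all genes. As given above, members of the KO mice were shallower and more often showed a mitotic gene. The rule genes Birc5 and Rrm2, whose levels the rule cuts, also passed and were higher in them. The part of depth and of the rule in these list medians was not tested. Hmgb2, a chromatin protein of dividing cells, was the G2/M gene that passed, at 165 and 162 CPM against 247 and 238 CPM (log2 fold change 0.52, SE 0.09, edgeR adjusted p = 0.0211). Tk1 rose by 0.72 (SE 0.13, edgeR adjusted p = 0.0314). Neither passed in thinned cells: at 3000 and 5000 UMIs Hmgb2 had log2 fold changes of -0.0047 and 0.31, and Tk1 of 0.18 and -0.10. Hist1h1c, a linker histone, fell, from 62.4 and 94.4 CPM to 42.1 and 48.3 CPM. Tk1 and Hist1h1c lost their calls without PRMT1FL mouse 2. Gdf15, a stress-induced cytokine, rose from 14.8 and 12 CPM to 32.2 and 36.2 CPM and was the 1 of 16 stress genes that passed. No gene of G1/S control or of the p53 list passed, with Ccnd2, a cyclin, and Phlda3, a p53 target, having the smallest p of each.

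**Figure D4:**
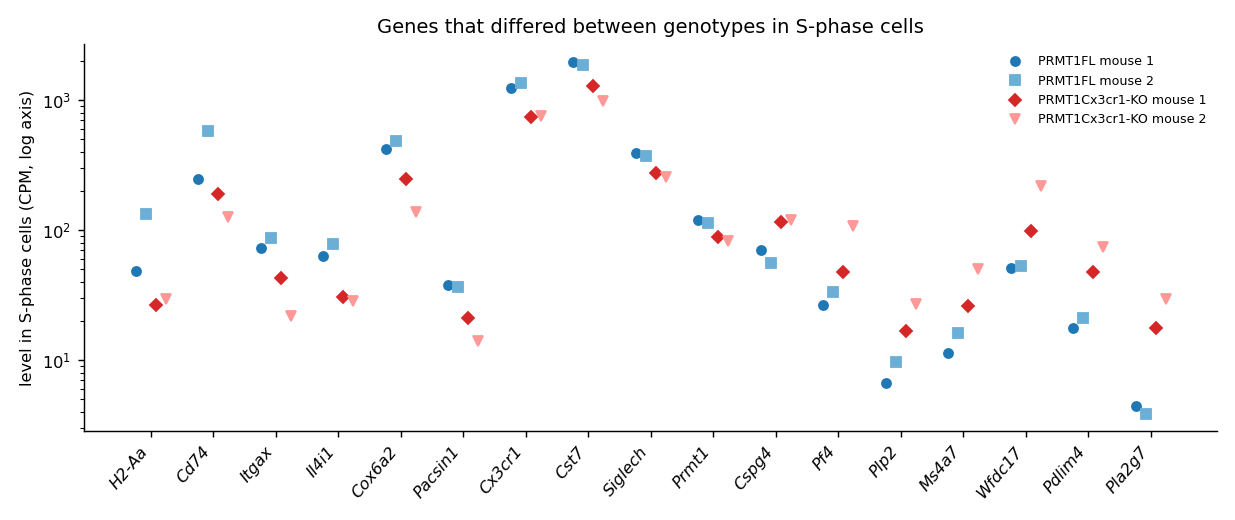
CPM in members (log axis) of the named genes that differed between genotypes, 1 symbol per library, ordered by fold change. Within each gene the 2 KO libraries lie on 1 side of the 2 PRMT1FL libraries, from H2-Aa, which fell most, to Pla2g7, which rose by 2.47 on the log2 scale.

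Members and other cells of a library come from the same mouse. The genotype effect in members was therefore set against that in other cells in 1 model with the libraries as blocks, and 24 (0.173%) of 13864 genes had a more positive effect in members and 13 (0.0938%) a more negative effect. Leaving out 1 library gave 115 calls without PRMT1FL mouse 1, 128 without PRMT1FL mouse 2, 71 without the first PRMT1Cx3cr1-KO mouse and 18 without the second. At matched depth most of the 37 genes no longer passed: 9 of them were among the 58 calls within the UMI quartiles, 8 among the 45 calls at 5000 UMIs and 2 among the 7 calls at 3000. The sign was kept by all 37 within the quartiles, by 33 at 5000 UMIs and by 32 at 3000.

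Among genes that passed, with at least 20 CPM and 1 direction in every library, the 6 largest negative differences were those of Tnfaip2, Tnfsf9, Tnf, Il1a, Gpr84 and Ank. Tnfsf9, the ligand of the costimulatory receptor 4-1BB, stood at 181 and 179 CPM in members of the PRMT1FL mice and 138 and 125 CPM in those of the PRMT1Cx3cr1-KO mice. In other cells it stood at 86.6 and 107 CPM and at 143 and 107 CPM. It fell by 0.50 in members (SE 0.10, edgeR adjusted p = 0.0358), and the difference between the classes was -0.80 (SE 0.09, edgeR adjusted p = 5.75e-05), with the sign turned to 0.46 when cells were thinned to 5000 UMIs.

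Tnf, a central inflammatory cytokine, stood at 267, 304, 445 and 333 CPM in members and 206, 222, 488 and 337 CPM in other cells, a difference of -0.48 in the genotype effect (SE 0.05, edgeR adjusted p = 5.75e-05). Tnfaip2, a gene induced by TNF, stood at 64.9, 63.5, 102 and 75.1 CPM in members and 66.8, 47.9, 161 and 129 CPM in other cells, a difference of -0.89 (SE 0.10). In other cells Tnfaip2 rose with the KO and in members its change did not pass. Il1a, a cytokine of the interleukin-1 family, and Gpr84, a receptor for fatty acids, had differences of -0.44 and -0.30, and Ank, a phosphate and ATP exporter, of -0.30. The difference of Il1a turned to 0.19 when cells were thinned to 5000 UMIs. Of these 6 genes, Tnfsf9 and Tnfaip2 also passed among cells within the UMI quartiles, and none passed in thinned cells.

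Of 7 MHC class II genes, 2 had a positive difference that passed. Cd74 differed by 0.75 (SE 0.16, edgeR adjusted p = 0.0374) and H2-Ab1 by 0.66 (SE 0.12, edgeR adjusted p = 0.0123), and both had less negative fold changes in members than in other cells. Thinned to 3000 UMIs, the difference of H2-Ab1 turned to -0.080. H2-Ab1 stood at 69.0, 131, 66.8 and 54.8 CPM in members against 170, 206, 83.3 and 67.7 CPM in other cells. Apoe, the lipid carrier, differed by 0.23 and Ctsd, a lysosomal protease, by -0.18, and Crip1, a small LIM protein, by 0.38. Of 16 stress genes, Atf3 and Junb differed upward and Tnf downward, and Btg2 was the 1 p53-list gene that passed, at 0.23.

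Genes of other cell types also passed here. S100a8 and Lcn2, both of neutrophils, had 0.162 to 1.96 CPM and 0.341 to 0.774 CPM in members of each library. In other cells S100a8 stood at 237, 717, 0.680 and 49.3 CPM and Lcn2 at 15, 42, 0.627 and 3 CPM. Neutrophil markers as a list summed to 411, 1355, 0.980 and 83.5 CPM in other cells, so the neutrophil content of the 4 libraries moved with these differences. Cnp, an enzyme of myelinating cells, differed by 0.47, beside oligodendrocyte markers at 90.3, 71.8, 48.1 and 30.1 CPM in other cells and 32.0, 26.9, 28.1 and 31 CPM in members. After cells with at least 3 markers of another type were removed, 38 genes passed, 27 of them among the 37, and 35 of the 37 kept their sign. Lcn2 and Cnp no longer passed, with differences of 2.75 and 0.27 (edgeR adjusted p = 0.254 and 0.443). S100a8 still did, with a difference of 5.26 (SE 0.91, edgeR adjusted p = 0.00408).

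**Figure D5:**
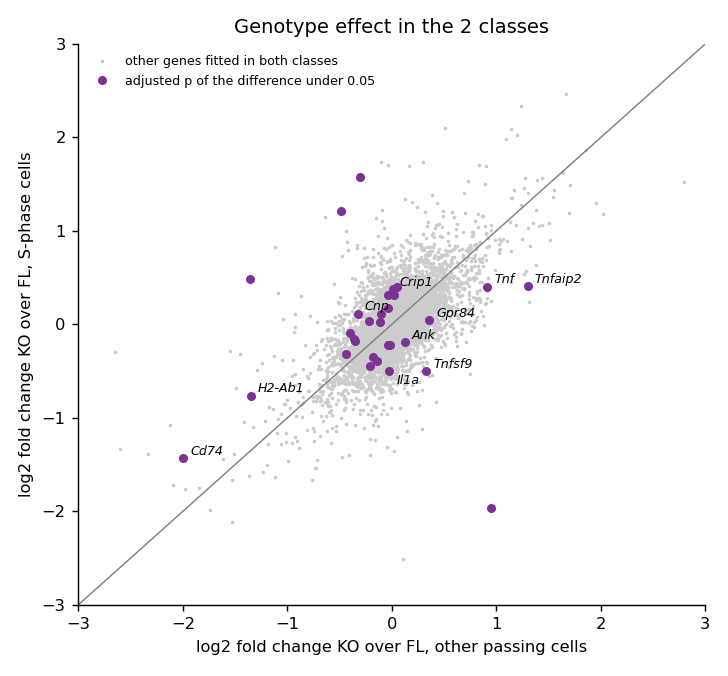
Log2 fold change between genotypes in members (vertical) against that in other cells (horizontal), 1 point per gene fitted in both classes, with 6 genes beyond the axis range of 3 not shown; coloured points are genes whose difference passed. Tnf, Tnfaip2, Tnfsf9, Gpr84, Ank and Il1a lie below the diagonal, and Cd74, H2-Ab1, Crip1 and Cnp above it.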

How the data were processed

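The authors deposited raw UMI counts per gene and cell, 1 matrix for each of 4 libraries. The submitters' processing notes name Cell Ranger 3.1.0, Seurat 3.2.0, Scanpy 1.5.2 and the mm10 genome. The members and the gene lists were chosen with earlier results of these data known.

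Passing cells had 200 to 6000 genes and at most 10% mitochondrial UMIs. Doublets were scored with the Scrublet routine of scanpy 1.11.5, and the top 0.8% per 1000 barcodes were marked but kept. UMIs were summed per library and class. Classes were compared by log2 CPM ratios per library (0.5 UMI added) with no test. Genotypes were compared on the sums with edgeR 4.0.16 in R 4.3.3 (TMM scaling, filterByExpr, quasi-likelihood test, Benjamini-Hochberg adjustment over all genes fitted, threshold 0.05), and the difference between classes with the library as a block. The 14 rule genes were fitted but left out of all counts. Named genes were Prmt1, up to 6 of the largest rises and falls, and up to 4 per list. The rises and falls were taken among genes that passed the test or the 2-fold limit, with at least 20 CPM and 1 direction in every library. Fits were run on counts simulated with a fixed spread between libraries, not one estimated from these data. That check does not measure their error rates here. Alternatives were other rule limits, thinning, doublet and marker filters, DESeq2 1.42.0, other scaling and leaving out each library. Gene positions come from GENCODE on GRCm38.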

Additional observations from a re-analysis of the deposited data

Results flagged for a closer look

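The genotype effect differed between members and other cells, by the interaction test in edgeR, for 37 genes. Those named were S100a8 (5.40 on the log2 scale, members minus other cells, fitted on 4, 1, 1 and 19 UMIs in members of the 4 libraries and turned to -1.43 with at least 3 S-phase genes), Lcn2 (4.0), Cd74 (0.75), H2-Ab1 (0.66), Cnp (0.47), Crip1 (0.38), Tnfaip2 (-0.89), Tnfsf9 (-0.80), Tnf (-0.48), Il1a (-0.44), Gpr84 (-0.30) and Ank (-0.30). The neutrophil and oligodendrocyte marker levels of the other cells moved with S100a8, Lcn2 and Cnp, and their part in these differences was not tested beyond the removal of cells given above. Outside the comparisons, 116 of the 167 barcodes with over 6000 genes (69.5%) had at least 4 S-phase genes.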

How the results depend on the processing

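The share of members among passing cells kept its direction in every alternative run, with a log2 ratio of 0.33 to 0.86 when 1 library was left out. With none of the 6 mitotic genes allowed, the shares were 1.91%, 2.02%, 2.10% and 3.07% in the 4 libraries. The ratio of geometric means was then 1.29. The 95% exact interval of PRMT1Cx3cr1-KO mouse 1 (1.83 to 2.40) overlapped those of both PRMT1FL mice (1.66 to 2.18 and 1.73 to 2.35). Of all cells in S phase or mitosis, the log2 ratio of the members' share was -0.44 with none of the 6 mitotic genes allowed, -0.028 thinned to 5000 UMIs and -0.087 within the UMI quartiles (leave-one-out -0.27 to -0.18). The 81 genotype calls became 40 and 100 with at least 3 or 5 S-phase genes (33 and 61 of them among the 81), 38 with no mitotic gene, 53 at a mitochondrial limit of 5%, 84 without marked doublets (63 among the 81), 71 without cells of 3 markers of another type (67 among the 81), 0 and 8 thinned to 3000 and 5000 UMIs, 19 within the quartiles, 403 without a filter on low counts, 44 by DESeq2 and 95 to 496 with 1 library left out. The 37 differences between classes became 100 and 99 with at least 3 or 5 S-phase genes, 78 with no mitotic gene, 83 without marked doublets, 38 without cells of 3 markers of another type, 7 and 45 thinned to 3000 and 5000 UMIs, 58 within the quartiles (33, 27, 2, 8 and 9 of these among the 37), 132 without a filter, 17 by DESeq2 and 18 to 128 with 1 library left out. The 49 genes 2-fold apart from other cells became 22 and 74 with at least 3 or 5 S-phase genes, 24 with no mitotic gene, 228 and 164 thinned to 3000 and 5000 UMIs, and 114 at 5 CPM, and the 118 apart from mitotic cells became 200 at 5 CPM (leave-one-out 53 to 56 and 120 to 134).

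Signs turned for the genotype effect of Hmgb2 (-0.0047) and Pclaf (-0.039) thinned to 3000 UMIs and of Pclaf (-0.25) and Tk1 (-0.10) thinned to 5000. For the difference between classes they turned for S100a8 (-1.43) with at least 3 S-phase genes, H2-Ab1 (-0.080) thinned to 3000 UMIs, Il1a (0.19), Prmt1 (0.085), Prmt5 (0.067) and Tnfsf9 (0.46) thinned to 5000, and Fcrls (0.045) and Ifi27l2a (0.044) within the quartiles. Of the ratios between classes, Pttg1 turned against other cells without mitotic cells at its own depth (0.080), and Pttg1 against other cells (0.018) and Pclaf against mitotic cells (0.16) turned when thinned to 3000 UMIs. The causes were not tested. The quartile alternative for the genotype results and the cycling share, the one with no upper limit on genes and the one without mitotic cells were chosen after seeing the data.

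Between libraries with the same replicate number, deviations from the group means had a correlation of -0.06 over 10618 genes. With so few libraries per genotype, this correlation cannot decide whether replicate numbers pair the samples. A replicate block gave 264 genotype calls in place of 81.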

Other observations

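Further genes passed the genotype test inside members, and those given here were chosen after their values were seen. Ccl6, a chemokine abundant in microglia, fell from 1188 and 1311 CPM in the PRMT1FL mice to 786 and 746 CPM in the PRMT1Cx3cr1-KO mice (log2 fold change -0.75, SE 0.09, edgeR adjusted p = 0.00274). Ccl9, a related chemokine, fell by 0.63 (SE 0.11). Cxcl2, which attracts neutrophils, rose from 388 and 275 CPM to 567 and 651 CPM (edgeR adjusted p = 0.0159), and Ccl2, which attracts monocytes, from 55.2 and 52.8 CPM to 156 and 93.6 CPM (edgeR adjusted p = 0.0211). Ms4a6b, Ms4a6c and Ms4a6d, neighbours in a family of membrane proteins, rose by 0.99, 0.79 and 0.77. Cdkn2a, a locus of cell cycle inhibitors, rose by 1.05 (SE 0.19, edgeR adjusted p = 0.0314).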
